A study of Mus musculus with 12 samples.

Results

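Imprinted genes are expressed mainly from the maternal or the paternal copy, because a differentially methylated control region carries DNA methylation on 1 parental allele. KRAB zinc-finger proteins such as ZFP57, together with their co-repressor TRIM28, hold this methylation through cell divisions and bind the methylated allele at a short motif. CTCF binds the unmethylated allele of the H19 control region and insulates Igf2 from enhancers beyond H19. The 10 genes described here were H19, Igf2, Dlk1, Meg3, Rian, Peg3, Mest, Snrpn, Kcnq1ot1 and Igf2r. Their members were the accessible intervals that overlapped the gene body or 20 kb on either side (GENCODE M21, GRCm38), a total of 148 of the 273256 intervals obtained by merging the peaks of every group. Windows of Meg3 and Rian shared 3 of these intervals.

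Open chromatin was profiled in 12 Omni-ATAC-seq libraries of 50000 sorted cells each, an assay in which Tn5 transposase cuts accessible DNA. There were 4 groups of 3 libraries: MEF control, MEF KO, reprogramming control and reprogramming KO. All samples were labelled as passage 2 (P2) fibroblasts of strain 129 from E12.5 embryos. The embryos were chimaeras, made by morula aggregation from 1 ES cell line that carries Cas9 and a doxycycline-inducible cassette of Myc, Klf4, Oct4 and Sox2 (OSKM) in the Sp3 locus. Host-derived cells without these alleles may therefore be among the MEF samples, whose sorting gate is not given in the sources used here. Control cells received a non-targeting sgRNA and KO cells an sgRNA against Zfp266, a KRAB zinc-finger protein gene, and all were harvested 96 h after transduction. MEF samples stayed in MEF medium, which holds FGF2 and heparin. Reprogramming samples spent the last 72 h in medium with LIF, doxycycline (300 ng/ml) and vitamin C (10 µg/ml), without FGF2 and heparin. They were sorted for mOrange, which the cassette co-expresses, from a culture with added wild-type MEFs. The contexts thus differ in medium as well as in the induced factors, and the 2 cannot be told apart. A transduced population is a pool of edited cells rather than a clone. The study asked how loss of Zfp266 changes chromatin in fibroblasts and during reprogramming.

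Each group had 1 merged peak list, with 161687 to 170135 peaks, so a peak's fold enrichment over background has no replicate error. An ATAC signal adds both parental alleles, and fewer cells with an open site cannot be told apart from a site less open in each cell. A missing peak means only that the signal did not pass the peak caller's threshold. The depth of the merged libraries is not given in the sources used here. All 7 fibroblast markers, such as Col1a1 and Twist1, had a start-site peak in all 4 lists. So did the 3 epithelial markers, both neural markers and the blood marker Tal1, so that a start-site peak alone does not mark a cell type. The endothelial markers Pecam1 and Cdh5 and the blood marker Ptprc had none in any list. Of 5 pluripotency genes, 3 had a start-site peak in MEF control and 4 in each other group. Zfp42 had a fold of 8.76 in reprogramming control and no peak in MEF control, while Nanog had none in any group. From MEF control to reprogramming control, Pou5f1 went from 2.23 to 3.025, Sall4 from 2.59 to 2.62 and Esrrb from 4.36 to 2.74. The Zfp266 start site kept a peak in every list (5.46, 5.08, 5.03 and 4.52 in the order MEF control, MEF KO, reprogramming control, reprogramming KO). This order is used for each set of 4 folds below. A start-site peak does not test whether the guide cut.

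The control regions hold the sequences through which imprinting factors act, and the stretches shown are the ones that the accessibility results return to. The H19 control region upstream of H19 held 2 intervals, chr7:142580071-142580826 (Interval_236532) and chr7:142581702-142582098 (Interval_236533). They contained 2 and 3 matches to the CTCF core GGNGGCAG (both strands searched), shown in capitals on the strand of H19 with 16 flanking bases.
Match 1, chr7:142580293-142580332, minus strand: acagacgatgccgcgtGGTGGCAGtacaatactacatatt
Match 2, chr7:142580748-142580787, minus strand: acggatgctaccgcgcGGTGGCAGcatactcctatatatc
Match 3, chr7:142581774-142581813, minus strand: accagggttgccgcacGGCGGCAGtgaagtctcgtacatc
Match 4, chr7:142581893-142581932, minus strand: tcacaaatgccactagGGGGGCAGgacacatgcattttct
Match 5, chr7:142582018-142582057, minus strand: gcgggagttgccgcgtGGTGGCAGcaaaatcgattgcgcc
Among all intervals within 10% of the same length, 2.82% and 0.0543% held at least as many CTCF core matches as these 2.

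The region between Dlk1 and Meg3 that controls the chromosome 12 cluster held a tandem run of the ZFP57 motif TGCCGC (both strands searched, capitals) inside Interval_61945, 11900 bp upstream of Meg3.
Upstream of Meg3, chr12:109528284-109528456, plus strand: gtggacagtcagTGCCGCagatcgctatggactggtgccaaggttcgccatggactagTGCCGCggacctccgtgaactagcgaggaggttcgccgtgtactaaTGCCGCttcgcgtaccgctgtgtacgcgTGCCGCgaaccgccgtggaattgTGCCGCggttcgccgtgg
The Peg3 control region, in the interval over its transcript starts (Interval_223215), held repeated YY1 matches (GCCATNTT, both strands searched, capitals), of which the densest 3 are given on the strand of Peg3.
Peg3, chr7:6727833-6727983, minus strand: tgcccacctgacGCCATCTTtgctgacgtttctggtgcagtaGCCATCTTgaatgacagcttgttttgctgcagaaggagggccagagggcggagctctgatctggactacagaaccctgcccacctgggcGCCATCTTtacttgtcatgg
A Mest promoter from RefSeq (GRCm38.p6), inside the control-region interval of Mest, held 2 ZFP57 matches (GCGGCA on the strand shown, capitals) in the 250 bases before its start. Among all RefSeq promoters, 0.874% held at least 2 such matches in that window and 8.68% at least 1.
Mest, chr6:30737800-30738049, plus strand: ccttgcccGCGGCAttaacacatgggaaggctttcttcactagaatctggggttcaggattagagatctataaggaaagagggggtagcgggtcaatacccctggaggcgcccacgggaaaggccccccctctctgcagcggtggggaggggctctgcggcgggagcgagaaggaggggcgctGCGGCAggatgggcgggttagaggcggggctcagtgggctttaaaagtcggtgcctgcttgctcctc
RefSeq promoter sequences were found for 9 of the 10 genes, all but H19. Meg3 had 1 ZFP57 match in this window and the other 7 had none.

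Several intervals over regions known to acquire methylation in the germ line held many ZFP57 matches. There were 12 at Mest, 10 at Snrpn, 8 at Peg3, 8 at the start of Airn inside Igf2r, 6 in the interval upstream of Meg3, 3 at Kcnq1ot1 and 3 in each H19 interval. At least as many matches were found in 0.565% (Mest), 0.0222% (Snrpn), 0.296% (Peg3), 0.203% (Airn), 0.0649% (upstream of Meg3) and 7.52% (Kcnq1ot1) of all intervals of like length. The other 4 intervals upstream of Meg3 held 1 match at Interval_61944 and 0 at the rest. For the H19 intervals these shares were 0.0702% and 0.0247%. Like intervals were matched on length alone, and the letters TGCCGC contain a CpG. The observed-over-expected CpG ratio of the 2 H19 intervals was 0.643 and 0.593, against a median of 0.185 over all intervals. How much of this rarity reflects CpG content was not tested. The intervals over the other promoters held fewer, with 2 at Igf2, 1 at Dlk1, 1 at Meg3 and 1 at Igf2r. At Igf2, 39.9% of like intervals held at least as many. Interval lengths differ, so the raw counts are not on 1 scale. The Peg3 interval also held 12 YY1 matches, and 0.127% of like intervals held as many. A match is a stretch of letters and not a measured binding event.

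At these loci most peaks appeared in only 1 of the contexts, as they did elsewhere, and the balance was toward fibroblasts. Of 142 member intervals with a peak in either list, 69 had a peak only in MEF control and 31 only in reprogramming control, leaving 42 with both. A peak in 1 context alone was thus as frequent at the members (70.4%) as among all intervals (70.9%). Among all intervals the shares were 34.6% for MEF control only and 36.2% for reprogramming control only, against 48.6% and 21.8% of the members. Intervals within 20 kb of any gene gave 33.0% and 35.2%, and 492 further intervals with a peak in either list around 40 other imprinted genes gave 34.6% and 29.9%. The share of MEF-only peaks at the 10 loci lay above each of these backgrounds, and the share of reprogramming-only peaks below them. No test was made of these shares.

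The KO libraries, which share no library with the control libraries, gave the same picture. Of 135 member intervals, 65 had a peak only in MEF KO and 27 only in reprogramming KO (backgrounds 35.0% and 35.4%). Of the 69 intervals with a MEF peak only in control libraries, 58 were also MEF only in KO libraries, 3 had both peaks and 8 had neither. Of the 31 reprogramming-only intervals, 25 were reprogramming only in KO libraries. This agreement between genotypes was that of all intervals, with 84.1% against 84.9% for the MEF-only class and 80.6% against 80.8% for the reprogramming-only class. In all, 58 intervals (39.2%) appeared in both MEF lists alone, 25 (16.9%) in both reprogramming lists alone and 39 (26.4%) in all 4 lists. Among all intervals these classes made up 27.5%, 27.4% and 24.7%.

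**Figure D1:**
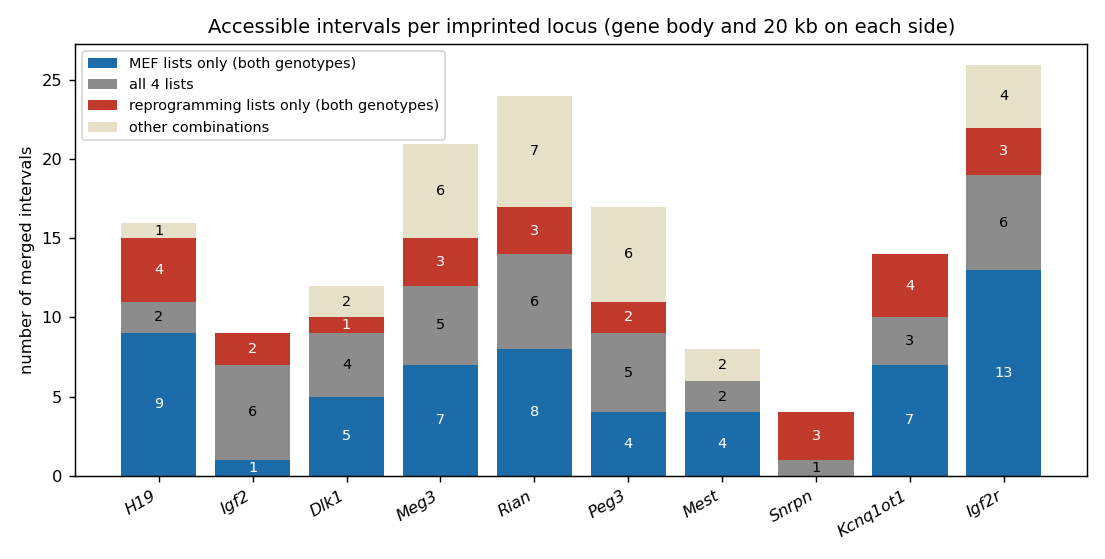
Number of merged intervals (vertical axis) at each imprinted locus, divided by the peak lists in which they appear. Igf2r had the most MEF-only intervals (13), Igf2 had 1, and Snrpn was the locus with none.

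The loci differed among themselves in this respect. H19 had 9 MEF-only intervals of 16, Igf2r 13 of 26, Kcnq1ot1 7 of 14 and Mest 4 of 8. Igf2 was mostly shared, with 6 of 9 intervals in all 4 lists. Snrpn went the other way, with 3 of 4 intervals in the reprogramming lists alone. Rian and Meg3 had 8 of 24 and 7 of 21 MEF-only intervals, Dlk1 5 of 12 and Peg3 4 of 17.

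Where both contexts had a peak, folds were compared relative to the median interval, since reprogramming control folds were generally lower (median ratio 0.858). A ratio of at least 1.5 times from that median was counted as a difference. Of the 42 shared member intervals, 11 were higher in reprogramming control and 0 lower, against 15.6% and 14.3% of all shared intervals. In KO libraries 13 of 43 were higher and 2 lower (backgrounds 15.7% and 14.0%). Of 39 intervals in all 4 lists, 10 were higher in control libraries, and all 10 were also higher in KO libraries. The same share over all intervals was not worked out, so this agreement is not read as a trait of these loci. Among the 39, the largest disagreement between genotypes in this ratio was 1.30-fold. Intervals that lacked a peak in any list are left out of it, so it is no measure of variation between replicate lists. Without centring on the median, 5 of 42 (11.9%) were higher and 4 (9.52%) lower in control libraries, against 9.66% and 24.9% of all shared intervals.

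**Figure D2:**
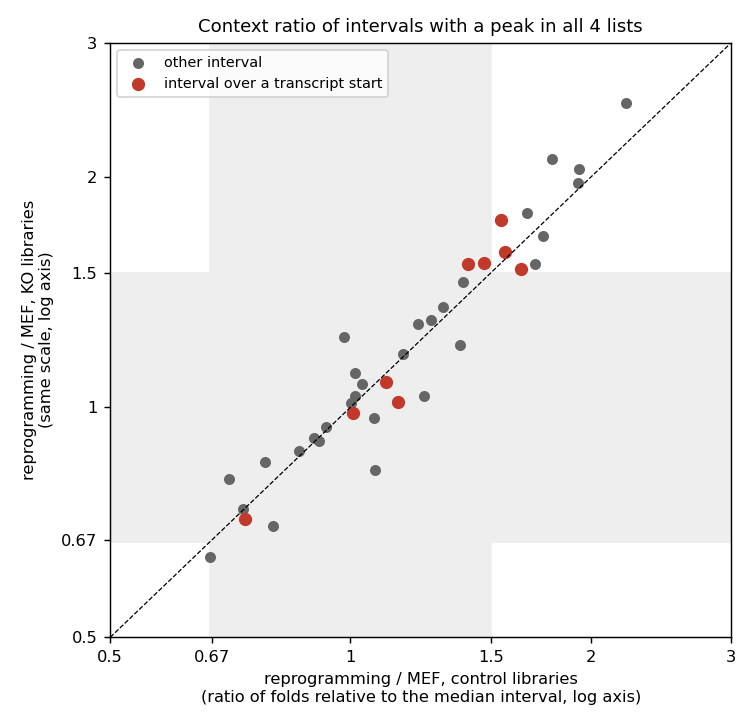
Ratio of fold enrichment in reprogramming over MEF, relative to the median interval, for the 39 member intervals in all 4 lists, with control libraries on the horizontal and KO libraries on the vertical log axis. The grey bands mark ratios within 1.5 times of the median, and the points follow the diagonal. All 10 intervals past the band in control libraries were also past it in KO libraries, with no share over all intervals to compare.

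H19 is a maternally expressed non-coding RNA, and its control region sits a few kilobases upstream. Both control-region intervals, whose CTCF core matches are shown above, were called in the MEF lists alone. Interval_236532 had folds of 2.40 in MEF control and 2.51 in MEF KO, and Interval_236533 had 2.19 and 2.22. Neither had a peak in either reprogramming list. The next interval, 13 bp upstream of the H19 start (Interval_236531), had 2.74 and 2.38 in the MEF lists and no peak in reprogramming. These 3 separate intervals were called in both MEF lists and in neither reprogramming list. The reverse held inside the gene, where Interval_236530, over the starts of 4 shorter H19 transcripts, had 1.74 and 1.85 in the reprogramming lists and none in MEF. These folds are low, and the -log10 q of Interval_236533 was 3.52 in MEF control. Downstream of H19, on the side where its enhancers lie, Interval_236529 was called in all 4 lists (3.10, 2.98, 1.87 and 2.08) and Interval_236525 in MEF alone (3.50 and 3.53). Interval_236537, in an intron of Gm33148, was the strongest reprogramming-only interval at 3.51 and 2.58.

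Igf2 encodes a paternally expressed growth factor and shares the H19 enhancers. The only interval over its transcript starts, Interval_236552 (5187 bp, 4 GENCODE starts, and 2 of the 4 RefSeq promoters), had folds of 2.20, 2.01, 2.92 and 3.06. It was higher in reprogramming by 1.54 times in control and 1.76 times in KO libraries, relative to the median interval. The interval farthest upstream had lower folds in reprogramming, with 4.51, 5.02, 2.58 and 2.77 at Interval_236555, a relative ratio of 0.667 in control libraries. That value is at the edge of the 1.5-fold limit, and it was 0.638 in KO libraries. Of the 9 Igf2 intervals, Interval_236547 (2.66 and 2.58) was the strongest of the 2 that only reprogramming cells had. Interval_236548 was the only MEF-only one (2.72 and 2.59).

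Dlk1, Meg3 and Rian lie in 1 cluster on chromosome 12, in which Dlk1 is a paternally expressed transmembrane ligand and Meg3 and Rian are maternally expressed non-coding RNAs. The Dlk1 promoter interval (Interval_61933, 8 transcript starts) was nearly level across groups, with 3.00, 3.15, 2.95 and 2.77. Interval_61937, beyond the 3′ end of Dlk1, was the strongest MEF-only interval of that window (3.21 and 3.07). Interval_61928, upstream of Dlk1, had the highest reprogramming folds there (2.98 and 2.92). Interval_61936, also beyond the 3′ end, was the only one called in both reprogramming lists alone (2.59 and 2.41). The Meg3 promoter (Interval_61948, 5 starts) had 3.13, 2.83, 3.77 and 3.77, a relative ratio of 1.40 in control and 1.54 in KO libraries. The 2 genotypes thus fell on either side of the 1.5-fold limit.

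The control region between Dlk1 and Meg3 had different peaks in the 2 contexts. Interval_61945, which carries the ZFP57 run printed above, was called in all 4 lists with 3.16, 3.46, 2.17 and 2.10. Its neighbour farther from Meg3, Interval_61944, was called only in the reprogramming lists, with 3.48 and 3.01. On the side nearer to Meg3, Interval_61946 was a weak peak called only in MEF (1.76 and 1.63), with -log10 q of 1.94 and 1.26. Interval_61943 (1.78 and 1.89, reprogramming lists) and Interval_61947 (1.71, MEF control alone, -log10 q 1.11) were weak peaks. The reprogramming call at Interval_61944 had -log10 q of 21.1 and 15.6, whereas the MEF calls nearer to Meg3 lay close to the caller's threshold.

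The strongest new interval of the cluster was Interval_61954, in the Meg3 gene body 18865 bp downstream of its 5′ end and over an annotated exon. It had folds of 5.28 and 5.58 in the reprogramming lists and no peak in MEF. It held 1 match to the OCT4 octamer ATTTGCAT (both strands searched), shown in capitals because OCT4 is an induced factor. It also held 1 match each to the KLF4 letters GGGNGTGG, another induced factor, and the AP-1 letters TGAGTCA.
Within Interval_61954, chr12:109560415-109560454, plus strand: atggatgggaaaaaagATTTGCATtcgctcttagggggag
Among the intervals in both reprogramming lists alone, 3 of 25 members and 5.18% of all such intervals of like length held this octamer. Interval_61956, in an exon of Meg3, was shared and higher in reprogramming (1.94, 1.61, 2.76 and 2.50). The strongest MEF-only interval of Meg3 was Interval_61952 in an intron, at 2.43 and 2.65.

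Rian had no peak over its annotated 5′ end in any list. The only Rian transcript starts under an interval were 4 internal ones at Interval_61978, called in MEF alone with 3.17 and 2.99. Interval_61966, 363 bp downstream of the 5′ end, was also MEF only (1.80 and 1.72). Higher folds in reprogramming were found at introns and at microRNA genes. Interval_61974, in an intron, had 3.21, 2.93, 4.93 and 5.35, and Interval_61970, at the Mir370 gene, had 2.09, 1.80, 3.46 and 3.07. Interval_61967 had no peak in MEF control, 1.73 in MEF KO and then 3.13 and 3.57. Interval_61964, beside Mir136, was higher in both reprogramming lists as well (relative ratios 1.74 and 1.68). In MEF the highest fold of the window was 3.62, at Interval_61973 in an intron.

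**Figure D3:**
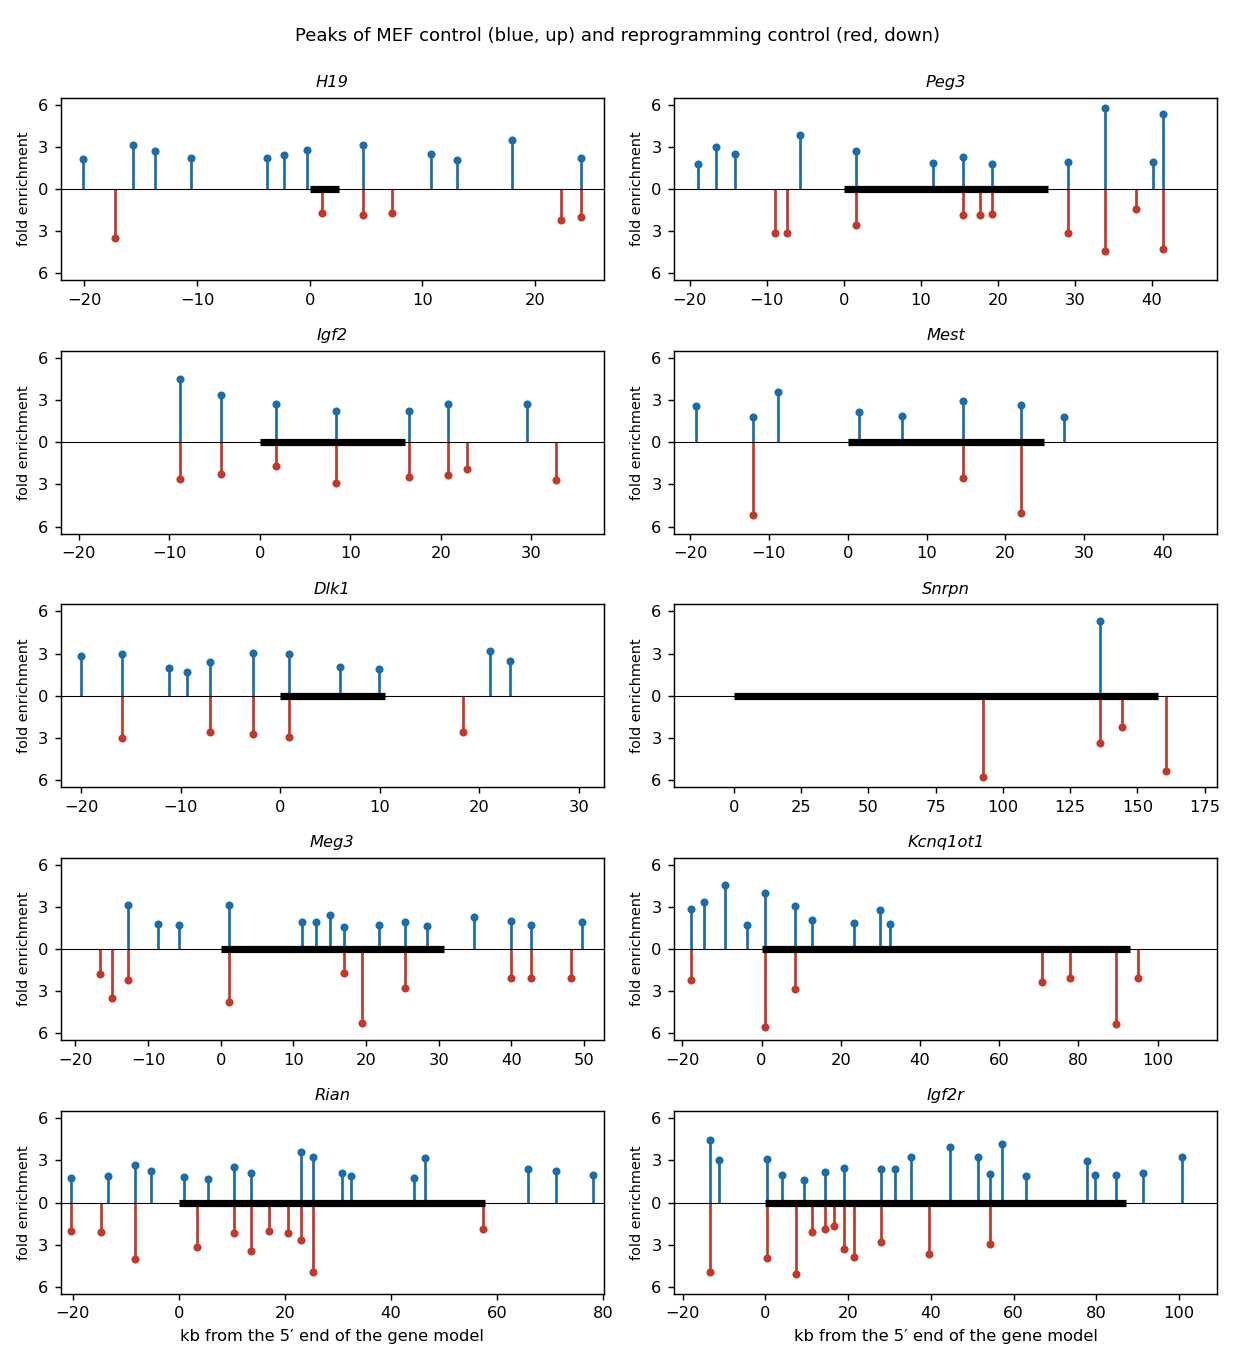
Fold enrichment (vertical axis) of each interval by the distance of its midpoint from the 5′ end of the gene model (kb, positive downstream), with MEF control drawn upward in blue, reprogramming control downward in red and the gene body as a black bar. Upstream of H19 the MEF peaks at the promoter and control region have no reprogramming peak opposite, and Snrpn shows 3 reprogramming peaks with no MEF peak opposite.

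Peg3, Mest and Snrpn are paternally expressed, with a promoter that is itself the methylated control region on the maternal allele. At Peg3, which encodes a zinc-finger protein, Interval_223215 over 3 starts and the YY1 matches had folds of 2.73, 2.79, 2.59 and 2.61. At Mest, a hydrolase-fold protein, Interval_209982 over 4 starts had 2.92, 2.88, 2.53 and 2.45. At Snrpn, which encodes a spliceosome protein, Interval_226933 had 5.30, 5.61, 3.36 and 3.48. The Peg3 and Mest control regions were nearly level relative to the median interval (1.11 and 1.01 in control libraries). Snrpn was lower in reprogramming, at 0.738 in control and 0.715 in KO libraries, within the 1.5-fold limit.

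Away from these promoters, each of the 3 loci had sites that were higher in reprogramming. Interval_209983, in a Mest intron, went from 2.67 and 2.49 to 5.07 and 5.38, a relative ratio of 2.21 in control and 2.50 in KO libraries. Interval_209978, 11194 bp upstream of Mest, had 1.82 in MEF control, no peak in MEF KO, and 5.15 and 5.40 in reprogramming. Interval_226934 had no MEF peak and the highest fold among the 10 loci in reprogramming control, 5.78, with 6.39 in KO. It lies in an intron of the GENCODE Snrpn model, and it overlaps 1 of the 4 Snrpn start windows that RefSeq annotates. Interval_226931, beside Snord64, likewise had only reprogramming peaks (5.33 and 5.29). At Peg3, Interval_223209 between Peg3 and Zim1 went from 1.91 and 1.92 to 3.16 and 3.40, and Interval_223218, in a Usp29 intron, was reprogramming only (3.18 and 3.08). The strongest MEF-only intervals were Interval_223216 at the Usp29 promoter (3.81 and 4.08) and Interval_209979 upstream of Mest (3.58 and 4.43). The highest MEF folds in the Peg3 window were at the Zim1 promoter, Interval_223208 with 5.73, 5.86, 4.43 and 4.63.

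Kcnq1ot1 is a paternally expressed antisense RNA that silences neighbours of Kcnq1 in cis, and its promoter is the control region. That promoter interval, Interval_236628, had 3.96, 3.81, 5.57 and 5.00. It was higher in reprogramming by 1.64 times in control and 1.52 times in KO libraries relative to the median interval. Over GENCODE starts this was the highest reprogramming fold of the 10 genes, above 86.1% of all genes with a start-site peak in reprogramming control, against 33.9% in MEF control. Interval_236620, 89154 bp downstream within the transcript, was reprogramming only (5.31 and 5.38). Upstream, in a Kcnq1 intron, Interval_236630 (4.54 and 5.06) and Interval_236631 (3.37 and 4.01) were MEF only. The 4 reprogramming-only intervals lay toward the 3′ end of Kcnq1ot1 and the 7 MEF-only ones in its 5′ part and upstream.

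Igf2r, the maternally expressed receptor that carries IGF2 to lysosomes, is silenced on the paternal allele by the antisense RNA Airn, which starts inside it. The Igf2r promoter (Interval_111672) had 3.13, 3.02, 3.95 and 4.05. The Airn start, the methylated control region (Interval_111663), had 2.40, 2.68, 2.82 and 2.80. An internal Igf2r transcript start (Interval_111665) had 2.47, 2.43, 3.31 and 3.36. Relative to the median interval these were 1.47, 1.37 and 1.56 times higher in reprogramming control, so that 1 of the 3 passed the 1.5-fold limit. In KO libraries they were 1.55, 1.21 and 1.60 times higher, and 2 of the 3 passed. The window held 13 MEF-only sites, the strongest of which was Interval_111656 in an intron (4.16 and 4.12). Interval_111670, 6973 bp downstream of the start in an intron, was the strongest reprogramming-only one (5.06 and 4.22). Interval_111674, an intron of Airn upstream of Igf2r, had the highest MEF folds of the window (4.43, 4.31, 4.98 and 5.05). Interval_111657 was the shared interval with the largest ratio (relative ratio 1.70 in control libraries).

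**Figure D4:**
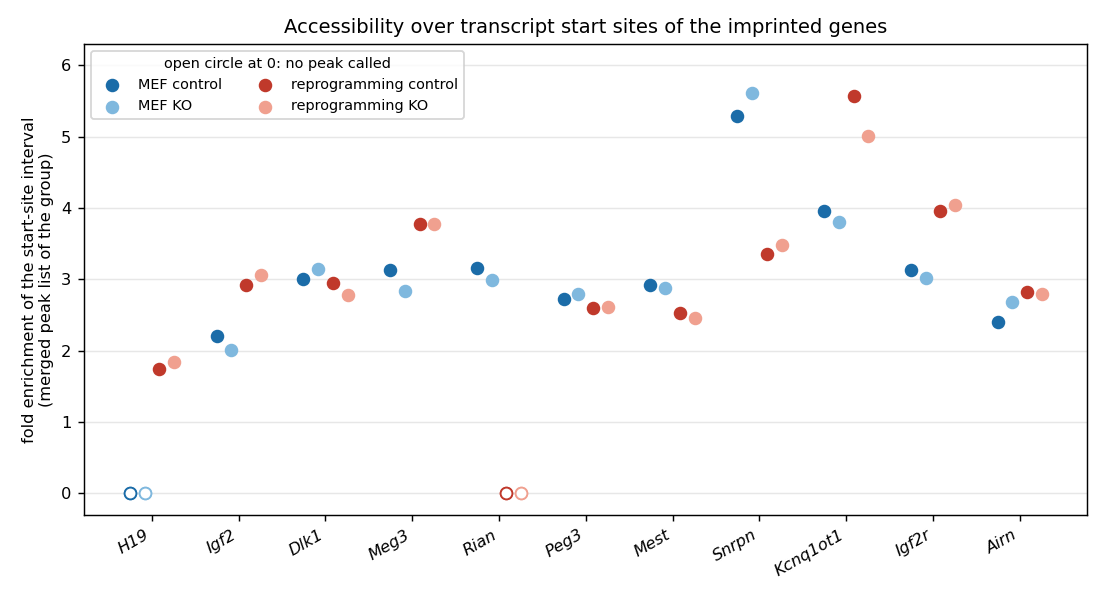
Fold enrichment (vertical axis) of the highest interval over any GENCODE transcript start of each gene, in the 4 merged peak lists, with open circles at 0 where no peak was called. Folds in control and KO lie close together within a context, Snrpn is highest in MEF and Kcnq1ot1 in reprogramming.

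Start sites of the 10 genes had low folds for promoters. Their median was 3.13 in MEF control, over 9 genes with a peak, against 4.67 over 21280 genes. In reprogramming control it was 2.95 against 3.84. Snrpn stood above 63.7% of genes in MEF control, and the other members were above 33.9% or fewer. Igf2 was above 4.23% of genes in MEF control and 24.5% in reprogramming control. Of 8 members with start-site peaks in both contexts, Igf2 and Kcnq1ot1 were higher in reprogramming control past 1.5 times relative to the median interval and 0 were lower, against 4.80% and 7.64% of 19807 genes. In KO libraries 4 of 8 were higher by this measure, Meg3 (1.54) and Igf2r (1.55) being added, and 0 were lower, against 4.66% and 8.39% of genes. Without centring, 0 were higher in control libraries and Snrpn was lower (ratio 0.634), against 2.29% and 17.9% of genes. In KO libraries without centring, Igf2 stayed higher (ratio 1.52) and Snrpn was lower (0.62), with no share of genes worked out. Apart from Igf2 in KO libraries, these calls thus depend on the scaling. The start-site calls of H19, in reprogramming alone, and of Rian, in MEF alone, rest on internal transcript starts. When peaks within 1000 bp of a start were counted, all 10 genes had one in every list, so neither call holds under that definition. The highest and lowest members, Snrpn and Igf2 in MEF and Kcnq1ot1 and H19 in reprogramming, stood apart from their neighbours by more than the KO-to-control difference. In MEF, Rian, Igf2r, Meg3 and Dlk1 lay between 3.00 and 3.17 in control and between 2.83 and 3.15 in KO, and their order changed between the genotypes.

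Of the 40 other imprinted genes, in MEF control 36 had a start-site peak (median 3.78) and in reprogramming control 34 (median 3.33). Of 34 with both, 2 were higher past 1.5 times relative to the median interval, Dcn (2.59 and 3.96 in the control groups) and Rasgrf1 (2.42 and 3.55), and 0 were lower. Without centring, 1 was higher (Dcn) and 4 were lower (Phlda2, Slc38a4, Magel2 and Dio3). The third largest ratio was that of Airn (2.40 and 2.82). The smallest ratios were those of Phlda2 (3.62 to 2.31), Slc38a4 (4.01 to 2.62) and Magel2 (5.27 to 3.46). In KO libraries these went from 3.43 to 2.20, from 3.92 to 2.70 and from 4.94 to 4.15. The drops of Magel2 (ratio 0.840 in KO, 0.658 in control) and Dio3 (0.794 and 0.658) were thus smaller in KO. Ins2 and Mirg had a start-site peak in MEF alone. Among imprint maintenance factors, Zfp57 (6.88 to 5.59), Zfp445 (7.33 to 4.36), Trim28 (4.17 to 3.57), Ctcf (3.77 to 4.10) and Uhrf1 (4.46 to 3.20) had peaks in both control groups. In KO libraries Zfp445 went from 5.74 to 4.89, a ratio relative to the median interval of 0.983, against 0.694 in control libraries. Dppa3 and Ctcfl had none. Accessibility of a start does not measure the amount of protein.

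Sequence features of the member classes were compared with all intervals of the same class and a length within 10%. Among the 58 MEF-only members, 16 (27.6%) held the AP-1 match TGAGTCA, against 43.8% of like intervals, and 19 (32.8%) held the CTCF core, against 20.3%. In all-4 members AP-1 was at 51.3% against 46.1% and the CTCF core at 56.4% against 55.3%, and 3 of 25 reprogramming-only members held the CTCF core, against 15.9%. ZFP57 matches were at the level of like intervals in MEF-only (6.90% against 6.98%) and all-4 members (33.3% against 33.0%). AP-1 matches were in 24.0% of the 25 reprogramming-only members, against 18.2%. The KLF4 match GGGNGTGG was above the share of like intervals in each class, with 52.0% against 27.6% in reprogramming-only, 27.6% against 19.6% in MEF-only and 66.7% against 57.5% in all-4 members. The SOX2 match CCATTGT was in 3 reprogramming-only members, against 16.6% of like intervals. It was in 15.5% against 12.4% of MEF-only and 20.5% against 23.3% of all-4 members. All were searched on both strands, and none of these shares was tested. MEF-only members had a median of 1.11 CpG per 100 bases and 48.7% GC, against 0.853 and 43.8% in all MEF-only intervals. The observed-over-expected CpG ratio, which allows for GC content, was 0.187 against 0.180. Fold levels of members were lower than usual, with a median of 2.28 in MEF-only members against 2.94 in all MEF-only intervals. In reprogramming-only members it was 2.59 against 3.04.

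Loss of Zfp266 was then compared with control within each context. Library counts were deposited only for intervals that passed the authors' own test, and 0 of the 148 member intervals were listed in MEF (0.176% of all intervals listed) or in reprogramming (0.588%). At these backgrounds few or no listed members would be counted in a set of 148, so a count of 0 sets the loci apart from nothing. No replicate counts are therefore reported for the member intervals, and 0 listed does not show that they were unchanged. The intervals listed in reprogramming had a median of 34.0% repeat-masked sequence, those listed in MEF 28.0%, all intervals 14.1% and the members 11.0%.

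Peak folds of the members were close in KO and control. In MEF, 100 of 119 intervals with a peak in either list had both, and 0 were past 1.5 times in either direction (backgrounds 0.104% higher and 0.0707% lower). Relative ratios ran from 0.817 at Interval_61975 (Rian) to 1.26 at Interval_209979 (Mest). In reprogramming, 67 of 76 had both and 0 were past the limit (backgrounds 0.242% higher and 0.114% lower). There the ratios ran from 0.745 at Interval_236537 (H19) to 1.28 at Interval_61971 (Rian). For 95% of all intervals the KO-over-control ratio lay between 0.805 and 1.23 in MEF and between 0.790 and 1.26 in reprogramming, so 3 of these 4 extremes lay just beyond it and Interval_61975 within it.

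Peaks called in 1 genotype alone were weak. In MEF, 8 member intervals had a KO peak only and 11 a control peak only (backgrounds 5.77% and 7.57%, members 6.72% and 9.24%). Their folds ran from 1.44 to 2.01 in KO and from 1.60 to 2.21 in control. In reprogramming, 3 had a KO peak only and 6 a control peak only (backgrounds 7.50% and 11.0%, members 3.95% and 7.89%), with folds from 1.61 to 1.96 and from 1.47 to 2.10. None of the intervals over a transcript start or in a control region was among them except Interval_61947 upstream of Meg3. Peak folds are a blunt measure of this contrast. Of the 229 listed MEF intervals with both peaks and a count ratio past 1.5, 69 were past that limit in peak fold. In reprogramming it was 195 of 783.

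The nearest listed intervals lay outside the windows. In MEF, Interval_236639 lay 59.4 kb upstream of Kcnq1ot1, within Kcnq1. Interval_111711 lay 218 kb from Igf2r in both contexts. For the other 8 genes the nearest in either context was 349.7 kb away or farther, up to 7358 kb at Snrpn in MEF.

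Of the 40 other imprinted genes, Kcnq1 and Ppp1r9a had listed intervals in their windows, 2 each, and these give library counts. The windows of the 40 genes held 527 intervals beyond the member windows, with 2 listed in MEF and 2 in reprogramming. Of all intervals, 0.176% and 0.588% were listed, so counts this small do not set these windows apart. Kcnq1 is a potassium channel gene whose introns host Kcnq1ot1. Interval_236639 (chr7:143355904-143357938, intron) had normalised counts of 180, 154 and 166 in MEF control and 280, 256 and 303 in MEF KO. The means were 167 ± 12.9 in MEF control and 280 ± 23.6 in MEF KO (SD, n = 3 each). The log2 change was 0.73 ± 0.084 (SE), with adjusted p = 2.4e-14 by edgeR's quasi-likelihood test. This SE and those below were worked back from the F statistic of the test. The peak folds of this interval were 4.93 in MEF control and 4.65 in MEF KO, so the peak fold did not rise with the counts. Its mean over the 6 reprogramming libraries, worked out from the authors' overall mean, was 29.9.

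Interval_236608 (chr7:143116544-143117074, in another Kcnq1 intron) had 9.35, 8.25 and 20.1 normalised counts in MEF control and 40.2, 42.5 and 60.6 in MEF KO. The log2 change was 1.93 ± 0.25 (SE; adjusted p = 2.0e-11, edgeR). Its reprogramming mean, derived in the same way, was 17.3. An exact permutation test of either interval gave p = 0.1 (two-sided), the smallest that 3 against 3 allows.

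Ppp1r9a, a neuronal actin-binding protein gene beside Peg10, had both of its listed intervals in reprogramming. Interval_207838 (chr6:4890278-4892682, outside any gene body, 10235 bp from Ppp1r9a) had 400, 365 and 426 normalised counts in reprogramming control and 613, 557 and 635 in reprogramming KO. The log2 change was 0.61 ± 0.071 (SE; adjusted p = 2.9e-13, edgeR). Interval_207851 (chr6:4974380-4974733, intron) had 18.99, 11.8 and 18.3 in control and 43.9, 36.9 and 55.6 in KO, a log2 change of 1.48 ± 0.26 (SE; adjusted p = 5.6e-06, edgeR). Without scaling for depth the calls at Interval_236639 (0.78), Interval_207838 (0.49) and Interval_207851 (1.35) were lost, while the log2 changes stayed positive. The exact permutation test again gave p = 0.1 (two-sided) at both intervals. The derived MEF means were 40.1 and 2.18, below the reprogramming counts at both sites. TMM factors over the listed intervals, most of which had higher counts in KO, lowered all 4 log2 changes alike and turned Interval_236639 and Interval_207838 negative. Interval_236608 (0.89) and Interval_207851 (0.51) stayed positive but lost their calls. These 4 intervals were selected as changed on the same libraries. Neither the retest nor the separation of KO from control libraries is therefore independent evidence.

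**Figure D5:**
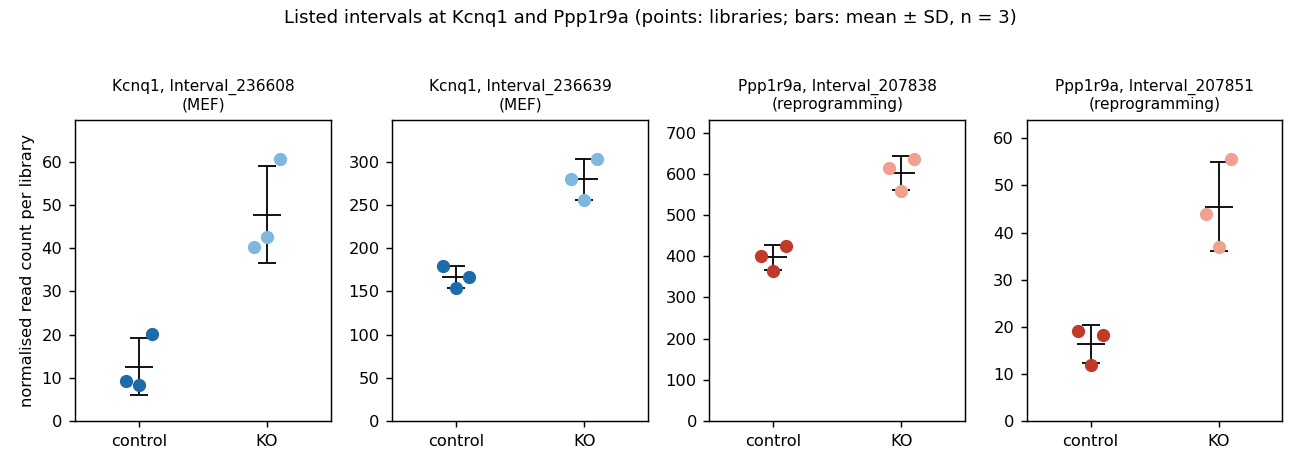
Normalised read counts per library (vertical axis, starting at 0) at the 4 listed intervals of Kcnq1 in MEF and Ppp1r9a in reprogramming, with the mean and SD of 3 libraries per group. At each interval every KO library lies above every control library, but the intervals were selected as changed on these same libraries.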

How the data were processed

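The authors trimmed reads with Cutadapt, aligned them to GRCm38 with BWA, marked duplicates with Picard and filtered the alignments. Broad peaks came from MACS2 (FDR under 0.1), run on the merged replicates of each group. The deposited peak lists give a fold enrichment over background (a ratio) and a -log10 q-value. The deposited tables of intervals past FDR 0.05 in DESeq2 hold raw read counts and counts divided by a size factor (a normalised signal) per library, the authors' mean over all 12 libraries, and their own fold changes and p-values, which were not used. Reads of strain 129 aligned to a C57BL/6J reference, and Tn5 offset handling is not given in the sources used here.

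Peaks were merged into intervals with Python 3.11.15 and pandas 2.3.3. The value of a group was the fold of its highest peak. Listed intervals were tested with edgeR 4.0.16 (quasi-likelihood, two-sided, recovered size factors of 0.630 to 1.46, Benjamini-Hochberg over 273256 intervals) in R 4.3.3, after the script was tested on simulated data. Totals over the listed intervals were 33936 to 86490 reads in MEF and 141616 to 324141 in reprogramming libraries, which is not their depth. Replicate libraries differed by more than counting noise. Nothing says that they came from separate cultures, so p-values may measure technical spread. Coordinates are counted from 1, and motifs were fixed letters.

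The member genes, lists and tests were chosen with earlier results of these data known, and the AP-1, OCT4, KLF4 and SOX2 matches were added after seeing the peaks. Named intervals were, for each gene, those over transcript starts or in the control region, the highest in each group, the largest ratios past 1.5 and the highest gained and lost ones. Other intervals named outside this rule were chosen after their values were seen. Alternatives were other windows, peak thresholds, fold limits, start definitions, normalisations, DESeq2 1.42.0, a replicate block and leaving out each library.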

Additional observations from a re-analysis of the deposited data

Results flagged for a closer look

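At 1 member interval the change between contexts ran in opposite directions in the genotypes. Interval_111668, in an intron of Igf2r, had a fold of 2.10 in reprogramming control with no peak in MEF control, but a fold of 1.44 in MEF KO with no peak in reprogramming KO. Each value comes from 1 merged list, and the difference was not tested.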

How the results depend on the processing

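Of 44 alternative log2 changes at the 4 listed intervals, 37 kept their direction and their call. Of 96 alternative shares and counts, 42 above 0 stayed within 1.5 times of the reported value and 26 stayed at 0. Shares of member intervals gained and lost between contexts stayed within that range for all 4 windows and thresholds tried, in both genotypes. The start-site tally without centring was added after seeing the data. In reprogramming control over MEF control, the share of shared intervals higher was 11.9% without centring and 4.76% at a 2-fold limit, and the share lower was 1.54% with 50 kb flanks, 3.70% with -log10 q of at least 5, 2.38% with length-weighted folds and 9.52% without centring. In the KO libraries, the share higher was 45.8% within gene bodies, 16.3% without centring and 9.30% at a 2-fold limit, and the share lower was 9.23% with 50 kb flanks, 11.6% without centring and 0% at a 2-fold limit. In MEF KO over control, KO-only peaks were 4.48% with -log10 q of at least 5 and 10.6% with peaks over at least 0.5 of the interval, and control-only peaks 2.99% with -log10 q of at least 5. In reprogramming KO over control, KO-only peaks were 2.38% within gene bodies, 6.09% with 50 kb flanks and 1.92% with -log10 q of at least 5. Control-only peaks were 12.2%, 15.4% and 15.2% with 50 kb flanks, with -log10 q of at least 5 and with peaks over at least 0.5 of the interval. The alternatives for gained and lost shares were chosen after seeing the data. With -log10 q of at least 5, 64, 65 and 44 member intervals had a peak in MEF control, MEF KO and reprogramming KO. Counting the 5′ end of the gene model alone left 4 of 10 genes with a start-site peak in every group, because the other models begin outside the interval. The cause of the other shifts was not tested.

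The count of listed member intervals was 0 with gene bodies alone and with 50 kb flanks. Refits by DESeq2, with the replicate block or without 1 library cover only listed intervals, so their count of 0 member intervals says nothing about stability. TMM factors over the listed intervals, most of which had higher counts in KO (477 of 478 called in MEF and 1522 of 1608 in reprogramming), moved log2 changes by a median of -1.05 in MEF and -0.97 in reprogramming. This centres on a set chosen as changed, so it says little about direction. It turned Interval_236639 to -0.32 (log2, adjusted p = 0.581) and Interval_207838 to -0.37, which then passed in the opposite direction (adjusted p = 0.00174, edgeR), and Interval_236608 (0.89) and Interval_207851 (0.51) no longer passed. The TMM count of calls was 95 in MEF and 473 in reprogramming, and without scaling 226 and 331. Without scaling, Interval_236639, Interval_207838 and Interval_207851 also lost their call (0.78, 0.49 and 1.35). Leaving out 1 library kept every call, with log2 changes at Interval_236608 from 1.73 to 2.39. With the replicate block, log2 changes were 1.95 and 0.74 at the Kcnq1 and 0.60 and 1.46 at the Ppp1r9a intervals, and no call changed. Same-numbered libraries correlated at 0.21, 0.14 and 0.04 in MEF and 0.04, 0.10 and 0.08 in reprogramming, so the numbers were not taken as pairs. Peak depth is unknown, so weak peaks near the caller's threshold limit the counts of gained and lost intervals.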
